A study of Mus musculus with 14 samples.

Results

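The genes described here are the SR protein and hnRNP genes measured in mouse spinal cord. They were chosen by symbol alone, as the genes listed in both RNA-seq libraries whose symbol begins with Sfrs, Srsf, Hnrp or Hnrnp or is Tra2a or Tra2b, and they number 38 of 19215 genes. Of these, 19 encode SR proteins or SR-related proteins and 19 encode hnRNPs. Their cassette exons, internal exons that a transcript either includes or skips, make up 60 of the 13189 cassette events in the tables and fall on 57 different exons of 27 genes. For 20 of the genes the tables use an older symbol. Sfrs1 to Sfrs7, Sfrs9 and Sfrs11 are now written Srsf, Sfrs10 is Tra2b, Sfrs2ip is Scaf11, Sfrs12 is Srek1, Sfrs8 is Sfswap, Sfrs14 is Sugp2, Sfrs16 is Clasrp, Sfrs17b is Akap17b, Hnrpdl is Hnrnpdl and Hnrpll is Hnrnpll.

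SR proteins carry a domain rich in arginine and serine and bind exonic enhancers, where they help the splicing machinery to recognise an exon. The hnRNPs coat nascent RNA and often act the other way, by blocking splice sites or looping exons out. Many genes of both families hold a poison exon, an exon whose inclusion brings a premature stop codon into the reading frame and sends the transcript to nonsense-mediated decay, and the encoded protein often promotes or prevents the inclusion of that exon in its own pre-mRNA.

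The whole spinal cord (WSC) was sequenced as poly(A) RNA in 2 libraries, replicate 1 from a male and replicate 2 from a female mouse, both 12-week-old B6/SJL animals with the Tg(SOD1)2Gur/J transgene, which expresses wild-type human SOD1. NOVA binding was measured by HITS-CLIP, in which RNA crosslinked to a protein is immunoprecipitated and sequenced. WSC CLIP used antiserum against endogenous NOVA in 3-month-old wild-type C57BL/6 mice (4 libraries). Motoneuron (MN) CLIP used the anti-GFP antibodies 19C8 and 19F7 on pooled spinal cords of 3-month-old C57BL/6 mice hemizygous for Chat:GFP-Nova, line #6 or line #17 (4 libraries each), in which the Chat promoter of a bacterial artificial chromosome drives GFP-tagged NOVA2 in cholinergic neurons. Antibody, tagged protein, genotype and cell type all change together between MN and WSC CLIP and cannot be told apart.

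The RNA-seq libraries held 72006019 and 65625173 reads on genes. Of 5 neuron markers 4 were in the tables, and markers of neurons, oligodendrocytes, astrocytes and microglia were present in both libraries, with Chat of motoneurons at 9.20 and 10.4 RPKM. The 3 skeletal muscle markers summed to 0.613 and 0.916 RPKM, with Myh4 at 0, and the 3 peripheral nerve markers to 0.448 and 0.577 RPKM. The 3 blood markers summed to 96.5 RPKM in replicate 1 and 39.3 RPKM in replicate 2. The CLIP libraries held 65961 to 871804 unique reads in MN and 2213104 to 6095995 in WSC.

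All 38 genes were expressed in the WSC. Their mean levels ran from 4.69 RPKM (reads on a gene relative to its exon length and the library's total) to 103 RPKM, with a median of 22.0 RPKM, against a median of 10.3 RPKM over the 11940 genes with a mean of at least 1 RPKM and 3.46 RPKM over all genes. The hnRNP genes had a median of 35.6 RPKM, the 19 SR and SR-related genes 14.5 RPKM, and the 8 SR proteins proper, Sfrs1 to Sfrs7 and Sfrs9, 25.3 RPKM. All 38 together took 0.374% and 0.363% of the reads on genes. In bulk tissue, fewer cells that express a gene and less RNA per cell cannot be told apart.

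The top of the list was held by hnRNPs. Hnrnpu, a nuclear scaffold protein that binds RNA and chromatin, stood at 109 RPKM in replicate 1 and 96.9 RPKM in replicate 2 (103 ± 8.55, SD, n = 2). Hnrnpa2b1, which acts in splicing and in RNA transport in neurons and oligodendrocytes, stood at 99.4 and 100.4 RPKM (99.9 ± 0.732, SD, n = 2). The ranges of these genes overlapped, and both lay well above the rest.

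Hnrnph1, which binds runs of G, came next at 59.7 and 58.6 RPKM. Below it Hnrnpk, a C-rich RNA binder with KH domains, stood at 53.9 and 57.7 RPKM, Hnrnpul2, a relative of Hnrnpu, at 56.8 and 53.2 RPKM, Hnrnpc, which binds U tracts in nascent RNA, at 48.6 and 56.2 RPKM, and Hnrnpl, which binds CA repeats, at 50.3 and 54.4 RPKM. These 4 overlapped one another, so their order is not resolved by 2 libraries. Sfrs5 was the highest gene of the SR group, at 41.8 and 47.0 RPKM, and it overlapped with none of its neighbours in the order. Hnrnpab, a single-strand binding protein of the A/B type, at 39.3 and 40.8 RPKM, and Hnrpdl, a close relative of Hnrnpd, at 40.3 and 37.1 RPKM, closed the first 10.

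**Figure D1:**
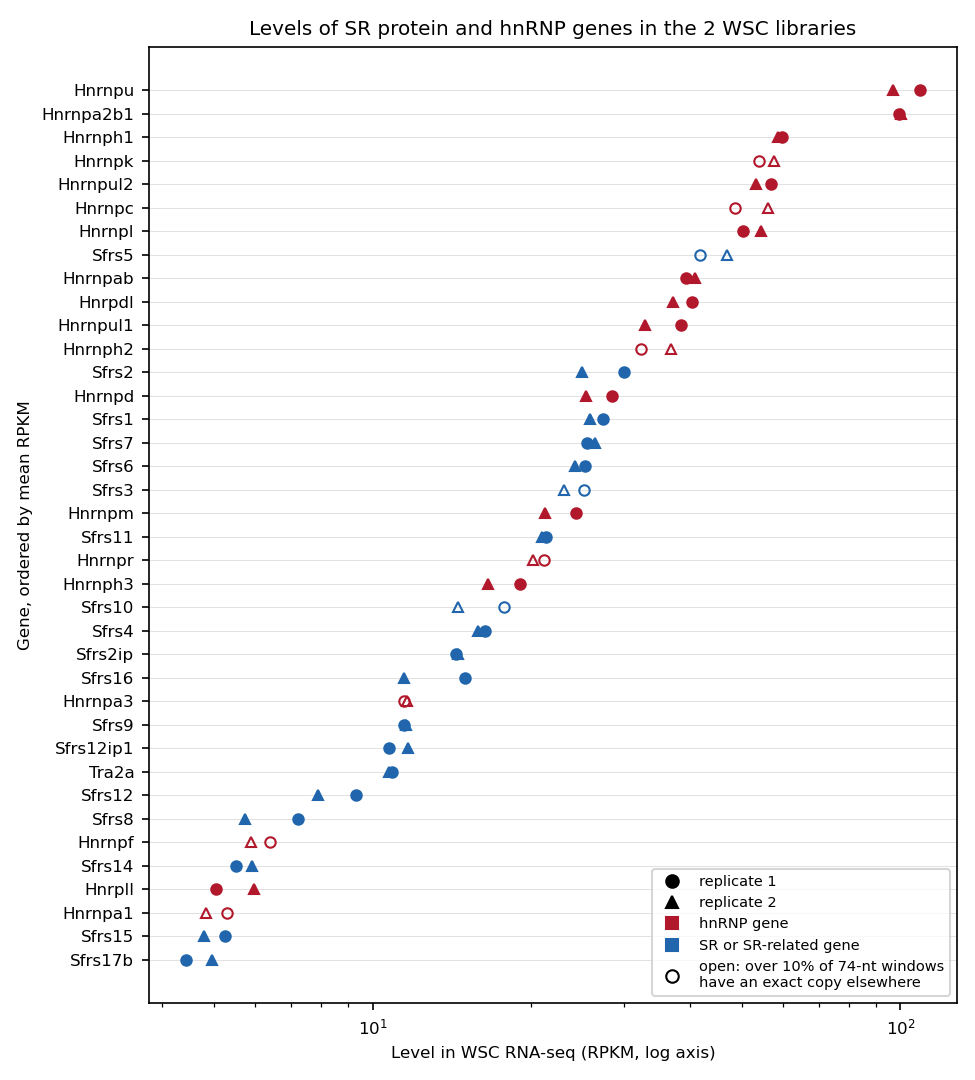
Levels of the 38 SR protein and hnRNP genes in the WSC, in RPKM on a log axis, with 1 circle for replicate 1 and 1 triangle for replicate 2 and genes ordered by mean. Red marks hnRNP genes and blue SR or SR-related genes, open symbols mark the 10 genes with more than 10% of their 74-nt windows copied elsewhere, and hnRNP genes hold 9 of the top 10 places.

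The levels of 10 of these genes are undercounted, because only reads with an unambiguous position were kept and the genes have near-identical copies elsewhere in the genome. Of the 74-nt windows along the transcript, 84.8% had an exact copy elsewhere for Hnrnpa3, 79.0% for Hnrnpa1, 71.5% for Hnrnpf, 43.1% for Hnrnpk and 38.0% for Sfrs5. Hnrnpa1, a widely expressed splicing repressor, was listed at 5.30 and 4.84 RPKM. How far this value lies below the true level was not tested. Without the 10 genes the median of the list was 22.0 RPKM.

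None of the 38 genes passed a 1.5-fold difference between the 2 libraries, where 3.49% of the 11940 genes with a mean of at least 1 RPKM did. With 1 library per sex this compares libraries and not sexes, and no test was made. In replicate 2, 15 genes were higher and 23 lower. The extremes were Sfrs16, an SR-related partner of CLK4, which was 1.30-fold lower in replicate 2 (14.99 and 11.5 RPKM), and Hnrpll, a relative of Hnrnpl, which was 1.18-fold higher (5.05 and 5.97 RPKM). These genes are named for their place at the ends of the range after the values were seen.

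The proteins that handle SR proteins and read poison exons were measured alongside, as a list of 22 genes of which 21 were in the tables. Among kinases and import factors, Srpk2, which phosphorylates SR proteins in the cytoplasm, was highest at 29.5 ± 0.105 RPKM and Srpk3 lowest at 2.32 ± 0.377 RPKM (SD, n = 2). Among factors of nonsense-mediated decay, Magoh, a core protein of the exon junction complex, was highest at 40.8 ± 6.95 RPKM and Upf3a lowest at 5.47 ± 0.0944 RPKM (SD, n = 2). None of the 21 passed the 1.5-fold difference between libraries.

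Reading each cassette exon in the frame of its upstream coding exon placed an in-frame stop codon in the exon for 14 of the 60 events, where 16.4% of 13167 cassette events in the whole table had one. Another 9 events had a length that shifts the frame (30.9% of all events), 15 kept the frame (33.9%) and 22 were given no frame by the annotation (18.9%), most of them in exons that lie before the start codon or after the normal stop codon. The 14 events fall on 13 exons of Sfrs3, Sfrs5, Sfrs6, Sfrs7, Sfrs9, Sfrs11 (3 exons), Sfrs2ip, Hnrnpl, Hnrpll and Hnrnph1 (2 exons).

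Because the position of the stop codon is what makes such an exon a poison exon, the sequence of 8 of these exons is shown from the first base of the exon to the in-frame stop codon, which is in capitals. All are from mm9, on the strand of the transcript, 5′ to 3′. The stretches lie at chr17:29176399-29176432 on the plus strand (Sfrs3), chr2:162758551-162758702 on the plus strand (Sfrs6), chr17:80604394-80604421 on the minus strand (Sfrs7), chr5:115781459-115781515 on the plus strand (Sfrs9), chr3:157687173-157687195 on the minus strand (Sfrs11), chr15:96268749-96268781 on the minus strand (Sfrs2ip), chr7:29602354-29602412 on the plus strand (Hnrnpl) and chr17:80444316-80444362 on the minus strand (Hnrpll). The stop codon falls within the first 60 bases in all of them except Sfrs6, where it begins at base 150.
Sfrs3: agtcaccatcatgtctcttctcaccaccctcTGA
Sfrs6: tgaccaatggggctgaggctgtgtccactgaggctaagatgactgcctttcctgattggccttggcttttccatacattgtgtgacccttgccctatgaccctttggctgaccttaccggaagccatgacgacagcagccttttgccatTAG
Sfrs7: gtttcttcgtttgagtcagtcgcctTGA
Sfrs9: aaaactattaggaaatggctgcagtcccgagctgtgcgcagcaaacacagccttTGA
Sfrs11: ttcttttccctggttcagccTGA
Sfrs2ip: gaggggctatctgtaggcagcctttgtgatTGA
Hnrnpl: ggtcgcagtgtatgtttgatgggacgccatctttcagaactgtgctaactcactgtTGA
Hnrpll: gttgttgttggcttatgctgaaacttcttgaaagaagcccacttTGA

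The inclusion rate was taken as I / (I + S), where I is the average count of the upstream and downstream inclusion junctions and S the count of the skipping junction, for exons with at least 10 junction reads in each library. Of the 60 events, 59 were covered, with a median inclusion rate of 70.3%, against 93.5% for the 9396 covered events of the whole table. Inclusion was under 10% for 15 events (25.4%, against 18.4% of all covered events). It was from 10% to 90% for 17 events (28.8%, against 27.4%) and over 90% for 27 events (45.8%, against 54.2%). The 14 events with an in-frame stop had a median of 12.3%, against 5.26% for all 1521 covered events with one. For the 13 of them without a junction that has an exact copy elsewhere in the genome, the median was 6.22%. Of the 14, 7 were under 10%, as were 55% of the 1521. Intervals given below are 95% Wilson intervals and cover counting error only.

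By junction reads, the poison exons of Sfrs6 and Sfrs7 were mostly skipped. Sfrs6, whose protein binds exonic enhancers and has its own poison exon of 268 nt, included it at 3.02% in replicate 1 and 1.93% in replicate 2 (intervals 1.57% to 5.74% and 0.754% to 4.86%). Sfrs7 has a poison exon of 460 nt with 0 of 56 informative reads for inclusion in replicate 1, where 3 reads, taken as the limit that a count of 0 allows, would give 5.36% and the Wilson interval reaches 6.42%, and it had 7.94% inclusion in replicate 2. Both exons had many reads on the exon itself, 163 and 140 on that of Sfrs6 and 326 and 206 on that of Sfrs7, so reads lay on the exon body far more often than on its junctions. With body reads counted as inclusion reads, the mean rates were 40.95% for Sfrs6 and 82.09% for Sfrs7, and what part unspliced RNA had in them was not tested.

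Sfrs2, an SR protein that also acts in transcription, carries its regulated cassette exon of 104 nt after the normal stop codon, where an annotated decay transcript holds it. That exon was included at 5.05% and 7.27%, and it had 139 and 98 reads on its body. Its frame was not given here, because the exon before it lies outside the coding part.

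Sfrs9 stood apart from these with a poison exon of 90 nt included at 35.4% and 31.0% (intervals 24.8% to 47.7% and 21.4% to 42.5%). Its stop codon begins at base 55 in the frame shown, or at base 9 in the other annotated frame. The upstream junction of this exon had 29 and 22 reads and the downstream junction 16 and 22, so both ends were seen in both libraries. A form of 79 nt that starts further in shares the downstream junction, and its own upstream junction had 0 reads in both libraries, so its listed rate of 16.3% and 18.3% comes from the shared junction.

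Sfrs3 and Sfrs5 give rates that their junctions do not bear out. The 456-nt poison exon of Sfrs3, the smallest SR protein, was listed at 100% in both libraries with 0 skipping reads, but the skipping junction has an exact copy elsewhere in the genome, so reads of skipped transcripts were not counted. The 266-nt exon of Sfrs5 was also listed at 100%, with 0 and 2 reads on its own upstream junction and 446 and 414 reads on a downstream junction that it shares with the 71-nt exon inside it, in which no in-frame stop was found and which has 397 and 571 upstream reads of its own.

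Sfrs11, an SR-related protein, has 3 exons with an in-frame stop. Its 109-nt exon, an annotated target of decay, was included at 5.29% and 7.16% against a skipping junction with 224 and 201 reads, and at 46.7% and 76.2% against a second skipping junction, to a 117-nt exon further on, with 16 and 5 reads. The upstream junction of the 109-nt exon had 25 and 30 reads, whereas the downstream junctions of the first and the second event had at most 3 reads in a library, so few reads joined the end of this exon to either annotated next exon. The 64-nt exon, whose stop codon is the end of an annotated protein-coding transcript, was included at 16.7% and 20%. This rate is against the 25 and 30 reads that join the exon before it to the 109-nt exon. It leaves out the 224 and 201 reads that skip both exons, so it is not a share of all Sfrs11 transcripts. The 64-nt exon had 0 and 2 reads on its upstream and 10 and 13 on its downstream junction. The 76-nt exon had 0 of 281 informative reads in replicate 1, where 3 reads would give 1.07% and the Wilson interval reaches 1.35%, and 0.549% inclusion in replicate 2.

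Sfrs2ip, an SR-related factor that interacts with Sfrs2, included its 169-nt poison exon at 2.90% and 5.81%, on 4 and 9 inclusion reads and with 0 reads on the exon body. Its upstream junction had 0 and 1 reads and its downstream junction 4 and 8, so the rate rests mainly on the downstream junction. No annotated transcript held this exon.

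Among the hnRNP genes, Hnrnpl included its 70-nt poison exon, an annotated target of decay, at 4.59% and 5% (intervals 1.98% to 10.3% and 2.31% to 10.5%), with 73 and 51 reads on its body. Hnrpll, which regulates exons of CD45 in lymphocytes, included an 83-nt poison exon at 2.86% and 4.60%. By junction reads both rates were low and their intervals overlapped. The Hnrnpl exon had 2 and 1 reads on its upstream and 8 and 11 on its downstream junction. With body reads counted as inclusion reads, the mean rates were 39.99% for Hnrnpl and 10.8% for Hnrpll. What part unspliced RNA had in them was not tested. No annotated transcript held the Hnrpll exon. Hnrnph1 has 2 exons with an in-frame stop. Its 50-nt exon, included at 93.9% and 93.8%, was mostly used and ends an annotated protein-coding transcript. The listed 94.4% and 98.2% of its 92-nt exon rest on the junction shared with a 139-nt exon. The upstream junction of the 92-nt exon itself had 0 reads, so its use was not seen.

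**Figure D2:**
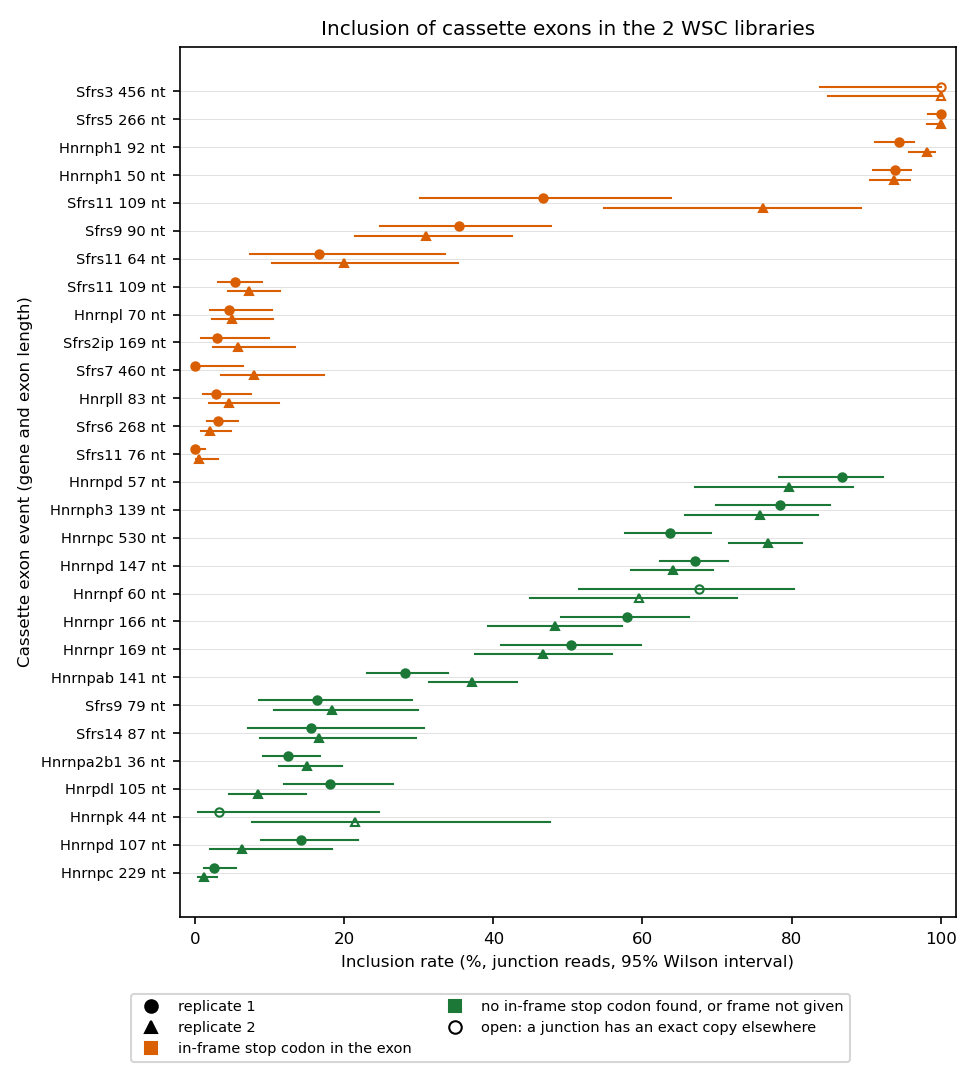
Inclusion rates (%) of 29 cassette events of SR protein and hnRNP genes in both WSC libraries, circles for replicate 1 and triangles for replicate 2, with 95% Wilson intervals as bars. Orange marks events with an in-frame stop codon, green the others and open symbols events with a junction copied elsewhere. Of the 14 orange events, 7 have a mean under 10%, as do 55% of all 1521 covered events with an in-frame stop.

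Several exons without a stop were used at intermediate rates. Hnrnpd (AUF1), which binds AU-rich elements, makes its isoforms with 2 such exons. Its 147-nt exon was included at 67.1% and 64.2%, and its 57-nt exon at 86.8% and 79.6%. Hnrnpab included a 141-nt exon at 28.1% and 37.1% (intervals 23.1% to 33.9% and 31.4% to 43.2%), and Hnrnpa2b1 a 36-nt exon, whose inclusion gives the longer B1 protein, at 12.4% and 15.02%. All 4 keep the reading frame.

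Hnrnph3 included a 139-nt exon that shifts the frame at 78.5% and 75.7%. Hnrnpr, a relative of the RNA transport factor SYNCRIP, has a pair of exons before the start codon, of 169 and 166 nt, that differ in their first bases and share their end, listed at 50.5% and 46.6% and at 57.9% and 48.3%. In Sfrs14, an 87-nt exon after the stop codon was included at 15.5% and 16.7%. Another 2 exons, the 60-nt exon of Hnrnpf at 67.6% and 59.6% and the 44-nt exon of Hnrnpk at 3.23% and 21.4%, have a junction with an exact copy elsewhere, which leaves their rates uncertain.

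Hnrnpd and Hnrpdl, which are neighbours on chromosome 5, each also have a cassette exon after the normal stop codon that annotated decay transcripts hold. The 107-nt exon of Hnrnpd was included at 14.2% and 6.33%, with 31 and 5 reads on its upstream and 0 on its downstream junction. The 105-nt exon of Hnrpdl was included at 18.1% and 8.37% (intervals 11.9% to 26.5% and 4.54% to 14.9%). Neither difference between libraries passed Fisher's exact test (FDR = 1 and 0.397), and the reads on the body of the Hnrpdl exon, 153 and 142, were alike.

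Uneven junctions were common in these genes. In 18 of the 59 covered events, 1 inclusion junction had less than a 10th of the reads of the other, against 14.8% of all 9396 covered events, and 13 of 48 remained when events with a copied junction were left out. This count was made after the values were seen. The inclusion rates of such events depend on which junction is read.

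Between the 2 WSC libraries, inclusion differed for 2 of the 59 events at FDR 0.1 in Fisher's exact test on inclusion reads (exon body and both junctions) and skipping reads, against 4.26% of all 9396 covered events. Both lie in Hnrnpc before the start codon. The 530-nt exon (chr14:52717690-52718219) was included at 63.7% in replicate 1 and 76.9% in replicate 2 (intervals 57.7% to 69.3% and 71.7% to 81.4%; FDR = 0.0440), but on 4 and 8 upstream reads against 329 and 431 downstream reads. The 229-nt exon, which begins at the same base, went from 2.56% to 1.13% (FDR = 0.0897).

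With junction reads alone, 2 events were again called, against 3.3% of all covered events, but they were the 530-nt exon of Hnrnpc (FDR = 0.0217) and the 460-nt poison exon of Sfrs7 (FDR = 0.0756), and the 229-nt exon was not (FDR = 0.635). The test compares the reads of 2 libraries and not the sexes, and blood markers were higher in replicate 1, whose part in these differences was not tested.

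All 28 cassette events of the 21 related genes were covered, and 7 of them, in 3 genes, held an in-frame stop, against 16.4% of all events. In 2 of these genes such exons had intermediate inclusion. Rnps1, an exon junction complex protein, included a 122-nt exon with an in-frame stop at 47.6% and 52.8% against 1 skipping junction and at 88.2% and 75% against another. Clk4, an SR protein kinase, included a 67-nt exon with an in-frame stop at 53.9% and 90% in 1 event and at 21.4% and 51.9% in a second, where the libraries differed in Fisher's exact test (FDR = 0.0411). Other events of these genes with intermediate inclusion were a 91-nt exon of Clk4 at 77.8% and 77.6%, a 59-nt exon of Clk4 at 29.8% and 50% and, in a second event, at 73.3% and 55.6% and a 73-nt exon of Prpf4b at 39.1% and 16.7%.

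NOVA, a KH-domain protein of neurons that binds UCAU-like words, was the protein whose contacts with these transcripts were read by CLIP. The 38 genes held 2364 CLIP reads in MN and 23598 in WSC, 0.152% and 0.167% of the reads in protein-coding genes. Per kilobase of gene, WSC CLIP reads were densest on Sfrs1 (181 reads per kb), Hnrnpd (157), Hnrnpk (154), Hnrnpu (124) and Sfrs2 (113).

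Between MN and WSC, 15 of the 38 genes had enough reads to be tested with edgeR's quasi-likelihood test over 4536 genes. At FDR 0.01, 3 were higher in MN, where 28.1% of all tested genes were, and 5 were lower, where 29.1% of all tested genes were. The 3 and 5 of 15 lie near these shares, so the count does not set the list apart.

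Sfrs12, an SR-related splicing regulator, was higher in MN. Its reads scaled to library size (CPM) ran from 82.6 to 192 in the 8 MN libraries with a median of 141, and stood at 65.5, 69.7, 76.5 and 78.4 in the 4 WSC libraries, with no overlap. The difference was 1.11 ± 0.14 (log2, SE; FDR = 1.3e-07). Sfrs8, the mouse relative of the fly gene suppressor of white apricot, ran from 21.8 to 132 CPM with a median of 81.0 in MN and stood at 32.6, 36.0, 36.1 and 27.5 CPM in WSC. Only MN libraries brought Sfrs8 past the read filter, so a gene with these WSC values and low MN values would not have been tested. Of the MN libraries, 7 lay above all WSC libraries, and the difference was 1.22 ± 0.19 (log2, SE; FDR = 3.1e-06).

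Hnrnpa2b1 was also called higher in MN, at 1.41 ± 0.31 (log2, SE; FDR = 0.00024), but its libraries were split. Its values were 0, 0, 78.2 and 69.6 CPM in line #6 and 0, 9.10, 49.5 and 78.6 CPM in line #17, against 25.8, 16.9, 26.4 and 19.8 CPM in WSC. The 4 MN libraries with a short 5′ barcode (replicates 1 and 2 of each line) held 1 read on this gene in 314548 reads on genes, and the 4 with the long barcode that all WSC libraries have held 86 reads in 1240127. With DESeq2 the gene was not called (FDR = 0.105), and with long-barcode libraries alone the difference was 1.79 (log2; FDR = 6.7e-09). The gene passed the read filter only through the 4 long-barcode MN libraries, where it was high. Without line #6 replicate 3 or 4 or line #17 replicate 3 or 4 it did not pass and was not tested. The call held in the other 8 of 12 fits without 1 library (1.24 to 1.54, log2). All of these kept the 4 libraries, so they do not check the call. The part of the barcode in this split was not tested.

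All 5 genes that were lower in MN are hnRNPs, as are most of the 15 tested genes. Without the read filter, Sfrs12ip1 and Sfrs7 of the SR group were called lower as well. Hnrnpl fell by 2.00 ± 0.28 (log2, SE; FDR = 4.9e-07), with 0 to 31.7 CPM and a median of 17.8 in MN and 88.6, 71.0, 61.4 and 77.2 CPM in WSC. Only WSC libraries brought Hnrnpl past the read filter, so a gene with these MN values and low WSC values would not have been tested. Hnrnpd fell by 1.17 ± 0.13 (log2, SE; FDR = 6.2e-09), with 66.0 to 180 CPM and a median of 112 in MN and 248, 232, 237 and 237 CPM in WSC. In both genes every MN library lay below every WSC library.

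Hnrnpul2 and Hnrnpu, which belong to 1 family, were also lower. Hnrnpul2 had 16.4 to 66.0 CPM with a median of 46.5 in MN and 94.3, 104, 88.7 and 82.6 CPM in WSC (-0.99 ± 0.18, log2, SE; FDR = 3.2e-05). Hnrnpu had 36.4 to 99.4 CPM with a median of 78.9 in MN and 133, 129.9, 139 and 141 CPM in WSC (-0.67 ± 0.15, log2, SE; FDR = 0.00025). In these genes too the groups did not overlap. The called genes were picked by the test on these same values, so such separation adds nothing to the calls. How many of all tested genes separate in this way was not counted.

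Hnrnpa3, a relative of Hnrnpa2b1 with many copies in the genome, had 16.5 to 109 CPM with a median of 39.4 in MN and 71.6, 64.9, 64.1 and 70.6 CPM in WSC. It was called lower (-0.71 ± 0.20, log2, SE; FDR = 0.0033), but 2 MN libraries lay above all WSC libraries. The MN libraries alone would not have brought Hnrnpa3 past the read filter. The call was lost without line #6 replicate 3 (FDR = 0.01004) and without line #17 replicate 4 (FDR = 0.051).

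**Figure D3:**
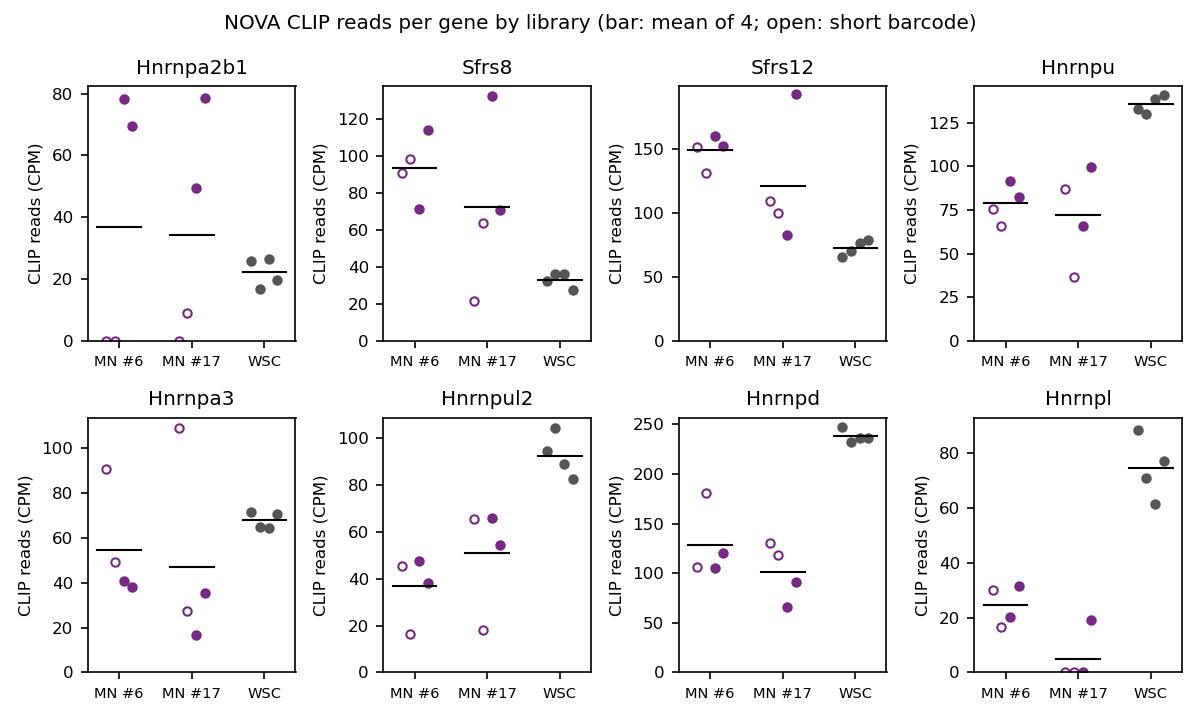
NOVA CLIP reads scaled to library size (CPM) on the 8 called genes in the 4 libraries each of MN line #6, MN line #17 and WSC, with points for libraries, open where the library has the short 5′ barcode, and bars for the mean of 4. Sfrs12 separates upward and Hnrnpu, Hnrnpul2, Hnrnpd and Hnrnpl separate downward in MN, whereas Hnrnpa2b1 and Hnrnpa3 overlap with WSC. The genes shown were picked by the test on these values, and the share of all tested genes that separate was not counted.

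The MN and WSC libraries also differed in where reads fell. Exonic reads made up 33.3% to 46.2% of gene reads in MN and 60.5% to 65.7% in WSC, and 34 of the 38 genes had the larger exonic share in WSC. When exonic reads were compared with exonic reads, 8 of the 38 genes were tested among 2234. Of the 8, 3 were higher in MN, where 24.3% of all genes tested were, and 1 was lower, where 24.6% were. The higher genes were Sfrs12 (1.45 ± 0.23, FDR = 8.2e-06), Sfrs11 (1.07 ± 0.25, FDR = 0.00070) and Sfrs1 (0.71 ± 0.22, FDR = 0.0064, all log2, SE). Only MN libraries brought Sfrs12 and Sfrs11 past the read filter of this fit. Genes with their WSC values and low MN values would not have been tested. Sfrs1, the founding SR protein, was not called over all reads (-0.04 ± 0.19). Its reads were 98.3% exonic in MN and 100% in WSC, so nearly the same Sfrs1 reads entered both fits. They were scaled to exonic reads in the exonic fit and to all gene reads in the other, so its rise does not show a move of Sfrs1 reads into exons. Sfrs11 was not called over all reads either (0.31 ± 0.19, log2, SE; FDR = 0.154). Its exonic share was alike in MN (59.8%) and WSC (59.4%), so the rise of Sfrs11 does not show such a move. Hnrnpd remained lower (-0.55 ± 0.14, log2, SE; FDR = 0.0013), whereas Hnrnpu (-0.41, FDR = 0.053) and Hnrnpul2 (-0.43, FDR = 0.083) were no longer called, and Hnrnpk turned from -0.29 to 0.20 with neither value called. With intronic reads alone, 4 genes were tested among 2743, of which 13.1% were higher and 13.9% lower in MN. Sfrs12 was called higher (0.59 ± 0.16, log2, SE; FDR = 0.0025), while Sfrs8 was not (0.39 ± 0.18, FDR = 0.088).

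**Figure D4:**
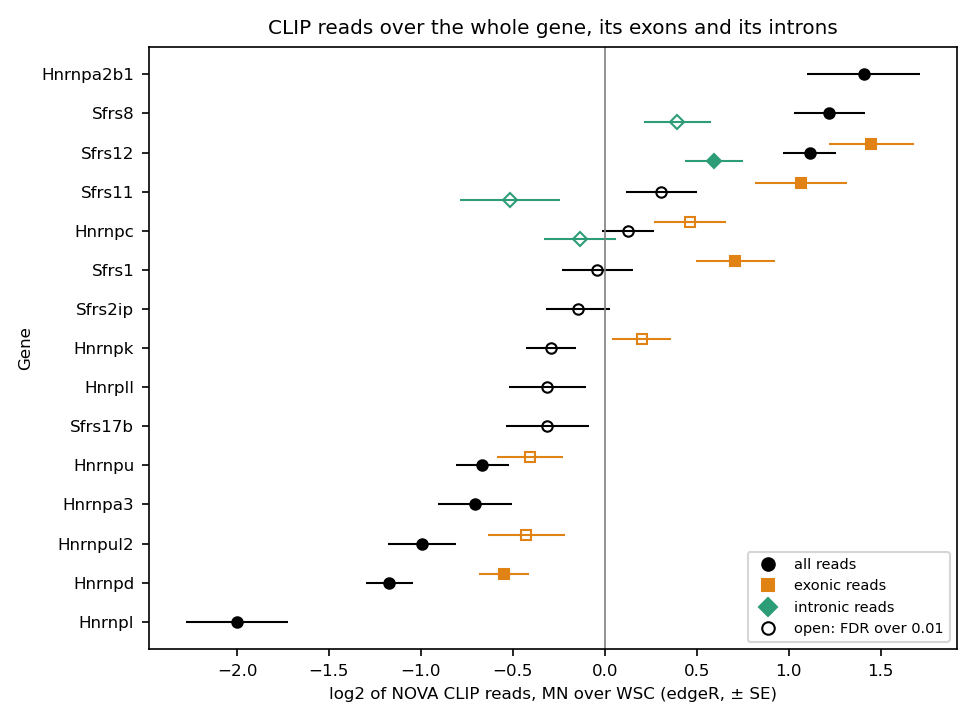
Log2 of NOVA CLIP reads in MN over WSC with SE for the 15 tested genes, from all reads in the gene (circles), exonic reads (squares) and intronic reads (diamonds), filled where FDR is at most 0.01. Sfrs12 lies to the right of 0 in all 3, and Sfrs1 and Hnrnpk move to the right of 0 when exonic reads are used alone.

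Whether NOVA reads lay near a cassette exon more often in one group was tested on reads that start within 250 nt of the exon, relative to the other reads in the gene. Only 5 of 57 exons had at least 10 reads in and outside the window in both groups. At FDR 0.1, 3 were higher in MN, where 37.8% of the 278 windows tested were, and 0 were lower, where 13.3% were. The median over all windows tested was 0.58 (log2). MN had 1554675 reads on genes in all and WSC 14114195. A window with a larger share in MN therefore reached 10 MN reads more easily and was more likely to be tested. For this reason the direction of the called windows and the median cannot be read as a result about these exons.

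The 226-nt exon of Hnrnpa2b1, after the stop codon, took 29 of 87 gene reads in MN (33.3%) and 24 of 299 in WSC (8.03%), a difference of 2.29 ± 0.47 (log2, SE; FDR = 1.9e-05). The 105-nt exon of Hnrpdl took 13 of 59 reads in MN (22.0%) and 14 of 540 in WSC (2.59%), a difference of 3.03 ± 0.64 (log2, SE; FDR = 3.3e-05). The 117-nt exon of Sfrs11 took 14 of 102 reads in MN (13.7%) and 33 of 780 in WSC (4.23%), a difference of 1.63 ± 0.56 (log2, SE; FDR = 0.011).

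The MN reads of these windows came from few libraries. Line #17 replicate 4, the deepest MN library, gave 16 of the 29 reads at Hnrnpa2b1, 6 of the 13 at Hnrpdl and 10 of the 14 at Sfrs11, and the short-barcode libraries gave 0 to all 3 windows. Without that library, only 1 of the 3 windows was still called, that of Hnrnpa2b1, and the other 2 had too few reads to be tested. The other tested windows, at the 136-nt exon of Hnrnpa2b1 (-0.72 ± 0.41, log2, SE; FDR = 0.144) and the 109-nt poison exon of Sfrs11 (0.93 ± 0.49, log2, SE; FDR = 0.110), were not called.

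NOVA reads upstream of the Sfrs11 poison exon were gathered at 1 place in WSC. Of the WSC read 5′ ends near this exon, 41 fell in 1 bin of 25 nt that lies 200 to 176 nt before the exon. In MN, 6 reads began in that bin and 6 in the bin next to the exon, where 2 WSC reads began. The intronic stretch of 100 nt with the most WSC coverage within 250 nt of the exon lies 107 to 206 nt before it, at chr3:157687302-157687401 on the minus strand (mm9). It is shown with the words that NOVA is known to bind in capitals, TCAT or TCAC or CCAT or CCAC.
Sfrs11 intron: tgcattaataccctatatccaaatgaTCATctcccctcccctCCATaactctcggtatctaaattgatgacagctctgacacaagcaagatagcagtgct

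This stretch held the starts of 47 of 780 WSC reads in the gene (6.03%), 5, 15, 16 and 11 in the 4 libraries, and of 6 of 102 MN reads (5.88%), so the shares were close, on few MN reads. The choice of the stretch by WSC coverage favours the WSC share, so the shares are not an even comparison. The stretch holds 2 of the words, and 45.6% of 12503 stretches at the same distance before other cassette exons hold as many.

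**Figure D5:**
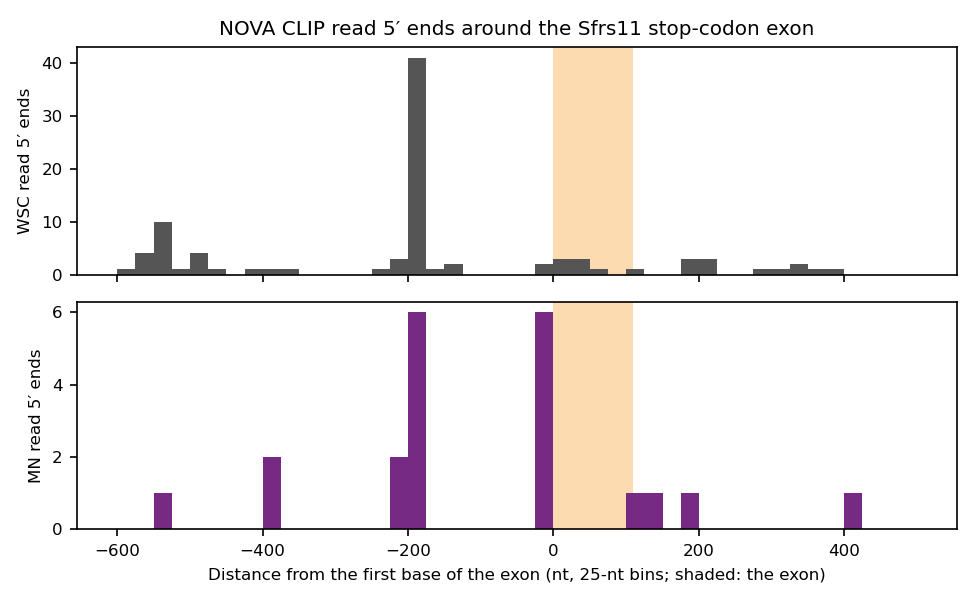
NOVA CLIP read 5′ ends in WSC (above) and MN (below) around the 109-nt stop-codon exon of Sfrs11, as counts in 25-nt bins by distance from the first base of the exon, which is shaded. In WSC the bin from 200 to 176 nt before the exon stands out with 41 reads, and in MN that bin and the bin just before the exon hold 6 reads each.

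The same words were counted on the transcribed strand in the 250 nt before and after each cassette exon. The 57 exons of SR protein and hnRNP genes had a median of 3 words before and 3 after, against 4 and 4 over 12503 cassette exons. A few exons had more, and they are named for this after the values were seen. The 112-nt exon of Sfrs14 had 12 words after it, as many as 0.616% of all exons, the 71-nt exon of Hnrnph2 had 10 before it (1.98%) and the 78-nt exon of Sfrs2ip had 9 after it (4.09%).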

How the data were processed

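RNA-seq reads were cut by the authors to 74 nt and aligned to mm9 with OLego, and Quantas counts were made from unambiguously placed reads. They deposited read counts and RPKM per gene and junction and body read counts per cassette exon. For CLIP, the authors deposited unique reads mapped to mm9 with Novoalign after collapsing duplicates, 1 line per read, from which counts per gene were made here. The score column of these lines was deposited with the reads and was not used.

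The genes and lists were chosen with earlier results of these data known. Cassette exons were placed on the NCBIM37 genome, which is mm9, from the splice sites (13167 of 13189 events), and read in the frame of GENCODE transcripts without introns under 30 nt. Differences in level used log2(RPKM + 0.1). Inclusion differences used two-sided Fisher's exact tests with Benjamini-Hochberg adjustment over 9396 events with at least 10 junction reads in each library, FDR 0.1. CLIP reads were assigned to the gene and strand in which they start. MN (8 libraries) and WSC (4 libraries) were compared with edgeR 4.0.16 (TMM, filterByExpr, quasi-likelihood test, FDR 0.01), with DESeq2 1.42.0 as an alternative. Windows used the logarithm of the gene's other reads plus 1 as offset, FDR 0.1. Exact copies were found with minimap2 2.31. On simulated data, 88.5% of 200 genes changed 4-fold, in 4273 genes, were recovered for the comparison of CLIP reads per gene, and 82.0% of 50 windows changed 4-fold, in 278 windows, for that of windows.

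The labels say that samples are biological replicates; each MN library is from pooled animals. Named genes were the 10 with the highest mean RPKM, all under 1 RPKM or past 1.5-fold between libraries, covered exons with mean inclusion from 10% to 90%, an in-frame stop or FDR of at most 0.1, genes and windows called in CLIP, and the 5 with the most WSC CLIP reads per kb. Results on 2 genes of the marker and related lists are not reported here.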

Additional observations from a re-analysis of the deposited data

Results flagged for a closer look

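In the CLIP of line #17, Hnrnpl had 19.2 CPM in replicate 4 and 0 CPM in replicates 1, 2 and 3, so that replicate 4 stood apart from the other libraries of its group. It was the deepest of the MN libraries. Of the 30 groups of 4 libraries looked at (10 genes), 1 showed such a gap, and chance alone gives about 1 in 20.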

How the results depend on the processing

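Levels of the 38 genes kept a median from 21.1 to 22.8 RPKM over the libraries taken alone. When a difference of 25% was asked for, 2 genes differed between the libraries, and 0 did at 1.5-fold or 2-fold. The median inclusion rate was 92.3% with exon body reads added, 49.4% with the upstream junction alone and 87.0% with at least 50 junction reads in each library, against 70.3% as reported, and 67.6% and 76.2% with 1 library each. In alternatives chosen after seeing the data, it was 68.0% without events with a copied junction, and 15 rather than 14 events held a stop codon when transcripts with introns under 30 nt were kept.

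For CLIP reads per gene, 8 of 15 genes were called as reported, where 57.2% of all genes tested were. The count was 16 of 38 without a filter (23.1% of all), 4 of 8 with exonic reads (48.8%), 1 of 4 with intronic reads (27.0%), 16 of 36 with long-barcode MN libraries alone (40.6%), and 6 to 11 when 1 library was left out. Deviations of same-numbered libraries correlated at -0.0656 to 0.0332 between MN and WSC and at 0.0562 to 0.199 between the MN lines, and those of other libraries at -0.169 to 0.171, so the replicate number was not used to pair MN with WSC. With the number as a block, 6 genes were called (47.6% of all), without Hnrnpa2b1 (FDR = 0.011) and Hnrnpa3 (FDR = 0.023), and 2 windows, without that of Sfrs11 (FDR = 0.108). Hnrnpk turned to 0.20 with exonic reads. Sfrs1, not called, turned from -0.04 to 0.71 with exonic reads, 0.13 with line #17 alone and 0.21 with long-barcode libraries, and ran from -0.37 to 0.037 when 1 library was left out. With windows of 100 nt, 1 window was tested and called, the 136-nt exon of Hnrnpa2b1, lower in MN (-1.03, FDR = 0.034). Leaving out 1 library gave 1 to 4 called windows, with 1 without line #17 replicate 4. The causes of these changes were not tested. Read depth limits the CLIP comparisons, and 23 of 38 genes and 52 of 57 exon windows were not tested.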

Other observations

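Genes below the read filter were fitted only when all genes were kept. In that fit over 16433 genes, 7.19% were called higher and 15.9% lower in MN. Sfrs5 was higher in MN by 3.52 ± 0.40 (log2, SE; edgeR FDR = 3.0e-17), with 0, 0, 11 and 4 reads in line #6, 0, 0, 2 and 19 in line #17 and 10, 3, 8 and 3 in WSC. Hnrnph1 was higher by 2.05 ± 0.26 (log2, SE; FDR = 2.2e-13), with 68 reads in MN and 133 in WSC. As for Hnrnpa2b1, these reads lay almost wholly in long-barcode MN libraries, which held 36 of the 36 MN reads on Sfrs5 and 64 of the 68 on Hnrnph1, and 79.8% of all MN reads on genes. The part of the barcode in this was not tested. Sfrs12ip1, which binds Sfrs12, was lower by -2.11 ± 0.34 (log2, SE; FDR = 6.3e-09), with 1 to 5 reads in each MN library and 101, 188, 182 and 74 in WSC, and Sfrs7 was lower by -1.29 ± 0.27 (log2, SE; FDR = 2.4e-05), with 30 reads in MN and 606 in WSC.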
